A study of Mus musculus with 33 samples.

Results

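The genes described here are 37 mouse genes of glycolysis and of the response to low oxygen, measured by RNA sequencing in cultured osteoblasts and fibroblasts. They are 2 glucose transporters, 15 glycolytic enzymes, 5 genes of pyruvate and lactate handling, 5 genes of mitochondria, 3 oxygen-dependent enzymes, 3 further hypoxia targets, 2 secreted factors and 2 collagen prolyl hydroxylases. All 37 were found by symbol among the 17982 genes of the deposited count table, and 36 of them passed the filter on low counts that left 13438 genes for testing. Eno1 was the exception.

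Glycolysis splits glucose into pyruvate in the cytosol and yields a little ATP without oxygen, and lactate dehydrogenase and lactate carriers remove the product when pyruvate does not enter mitochondria. When oxygen is scarce, the prolyl hydroxylases that mark the transcription factor subunit HIF-1alpha for destruction slow down, and the stabilised factor binds short hypoxia response elements, whose core is ACGTG or GCGTG, near many glycolytic genes. In bone, osteoblasts are known for high glucose use and lactate output, and HIF signalling in them is known for raising Vegfa.

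Induced osteoblasts, iOB, were made from tail-tip fibroblasts of Col2.3GFP mice, which carry green fluorescent protein under a collagen promoter fragment active in osteoblasts. The labels describe lentiviral delivery of a transcription factor gene, removal of virus after 24 h, replating on day 3 and osteogenic medium from day 5. They give no harvest day, age, sex or number of mice, and no group had the virus alone or the medium alone. Calvarial-OB are labelled as a calvarial progenitor source undergoing osteoblast differentiation and as a second dataset, so a difference of cell type from the other groups and a difference of dataset cannot be told apart. Fibroblasts were the labelled tail-tip cells, which were passaged and frozen before use. Each group had 3 libraries, and nothing states that they came from separate cultures or mice, so p-values measure the spread between these libraries. The sorted GFP-positive fraction of the iOB cultures, iOB GFP+, is known here only through a table of fold changes against fibroblasts.

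Totals were 5646299 to 15023771 counts per library, and the ribosomal precursor Rn45s took 5.08 to 5.48% of counts in iOB, 5.10 to 5.77% in calvarial-OB, and 2.27, 8.39 and 10.9% in fibroblasts. The 11 osteoblast markers were all higher in iOB and in calvarial-OB than in fibroblasts. Among them are the transcription factor genes Runx2, Sp7 and Dlx5. The iOB had received a transcription factor gene by virus, and these counts cannot tell a delivered copy of such a gene from the cell's own. Summed over 17 macrophage markers, levels were 2759 to 4432 CPM (counts scaled to library size with TMM factors) in iOB, 4189 to 7880 CPM in calvarial-OB and 48.1 to 99.4 CPM in fibroblasts, with no marker at 0 in any group. All 17 were higher in both osteoblast cultures than in fibroblasts, and 9 of the 17 were lower in iOB than in calvarial-OB. The sum over 8 adipocyte markers was 286 to 342 CPM in iOB, 1138 to 1864 CPM in calvarial-OB and 131 to 144 CPM in fibroblasts, where Adipoq, Cfd, Cidec and Retn were at 0. The part of these cell types in the results below was not tested, and in bulk RNA fewer cells of a type and less RNA per cell cannot be told apart.

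Together the 37 genes took 0.304, 0.311 and 0.312% of all counts in the iOB libraries, 0.706, 0.558 and 0.550% in calvarial-OB and 0.829, 0.704 and 0.735% in fibroblasts. The iOB libraries were below all others, while calvarial replicate 1 reached the lowest fibroblast library. Of the 36 tested genes, 26 were lower in iOB than in fibroblasts at an adjusted p below 0.05, where 20.6% of all tested genes were lower, and 2 were higher, where 22.7% were. Their median log2 fold change was -1.09, against -0.04 over all tested genes. The genes were listed with this comparison in view, so its values are given as a description and nothing is read from that count.

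The other comparisons share the fibroblast or the iOB libraries with that one. Against fibroblasts, calvarial-OB had 20 of the 36 genes lower, against 27.4% of all tested genes, and 6 higher, against 28.4%. Their median log2 fold change was -0.42, against 0.02 over all tested genes. Set against calvarial-OB, iOB had 26 lower, against 24.1% of all tested genes, and 2 higher, against 24.7%. That median was -1.13, against -0.03 over all tested genes. All calls come from edgeR's quasi-likelihood test with Benjamini-Hochberg adjustment over the 13438 genes, and errors on fold changes are standard errors.

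**Figure D1:**
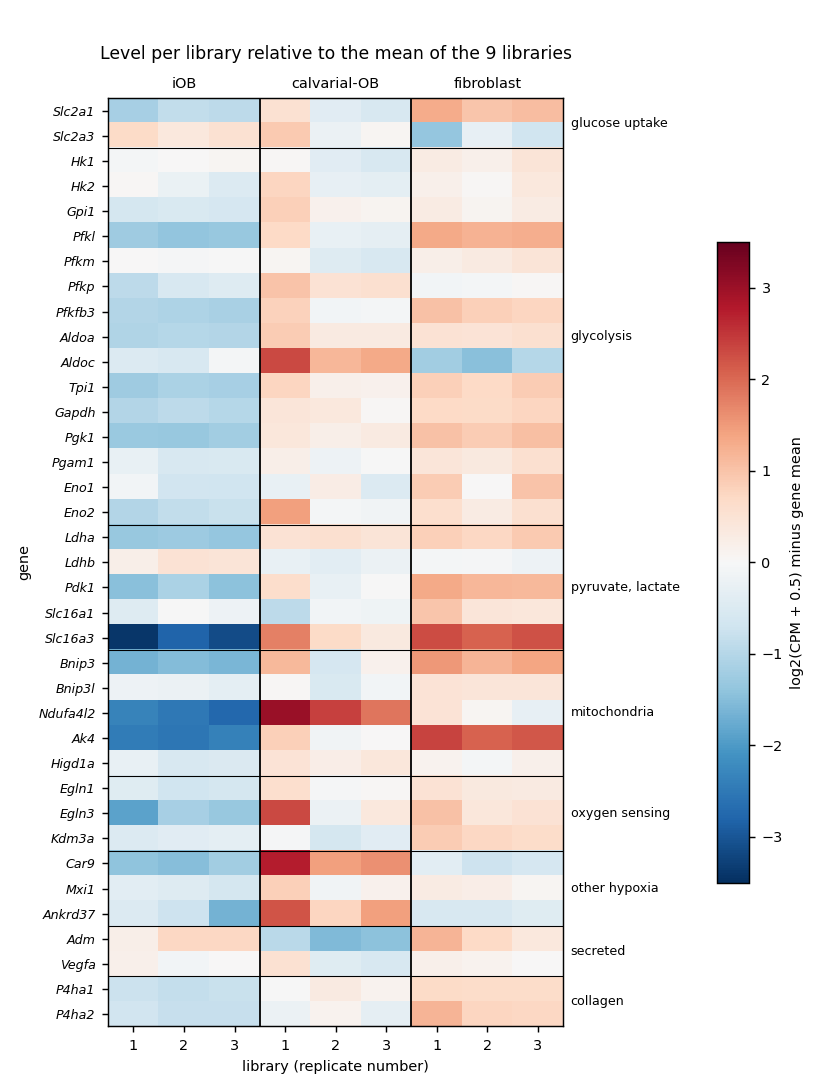
Level of each of the 37 genes in each library, as log2(CPM + 0.5) minus the gene's mean over the 9 libraries, with genes grouped by role and libraries grouped as iOB, calvarial-OB and fibroblast. Most genes are at their lowest in the 3 iOB columns, and Car9, Ndufa4l2, Ankrd37 and Aldoc are at their highest in calvarial-OB.

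The glucose transporters went opposite ways. Slc2a1, which encodes the widely expressed transporter GLUT1, measured 20.6, 25.1 and 24.4 CPM in iOB, 67.1, 35.1 and 31.3 CPM in calvarial-OB and 115, 91.9 and 97.9 CPM in fibroblasts. The 3 groups did not overlap, and iOB were lowest. Its log2 fold change was -2.12 ± 0.25 in iOB against fibroblasts and -1.20 ± 0.23 in calvarial-OB against fibroblasts (edgeR's quasi-likelihood test, adjusted p = 9.3e-04), and it was -0.92 ± 0.25 in iOB against calvarial-OB (adjusted p = 0.0091). Slc2a3, which encodes the high-affinity transporter GLUT3, measured 11.2, 8.94 and 10.1 CPM in iOB, 13.4, 5.88 and 7.16 CPM in calvarial-OB and 2.36, 5.52 and 4.07 CPM in fibroblasts, a low level in every group. Both osteoblast cultures lay above all fibroblast libraries, with log2 fold changes of 1.37 ± 0.34 in iOB and 1.17 ± 0.34 in calvarial-OB (adjusted p = 0.012). Without fibroblast replicate 1 the calvarial value was 0.89 and its call was lost.

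At the early steps of glycolysis, hexokinase differences were small and phosphofructokinase subunits changed unevenly. Hk1, the broadly expressed hexokinase, averaged 118 ± 5.10 CPM in iOB, 96.4 ± 21.9 CPM in calvarial-OB and 145 ± 13.2 CPM in fibroblasts (SD, n = 3 each), and only the calvarial difference from fibroblasts passed the test (-0.59 ± 0.15, adjusted p = 0.0042). Hk2, the hypoxia-induced hexokinase, averaged 42.5 ± 7.68 CPM in iOB, 53.8 ± 25.2 CPM in calvarial-OB and 56.8 ± 6.23 CPM in fibroblasts, and no comparison of it passed (-0.42 in iOB and -0.09 in calvarial-OB against fibroblasts). Gpi1, which isomerises glucose 6-phosphate, averaged 167 ± 5.03 CPM in iOB, 331 ± 102 CPM in calvarial-OB and 294 ± 20.8 CPM in fibroblasts. It was lower in iOB than in either other group, with log2 fold changes of -0.82 against fibroblasts and -0.99 ± 0.17 against calvarial-OB (adjusted p = 6.3e-04).

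Pfkl, the liver-type subunit of phosphofructokinase, measured 42.3, 38.9 and 40.1 CPM in iOB, 164, 84.8 and 81.5 CPM in calvarial-OB and 256, 236 and 248 CPM in fibroblasts. The groups did not overlap, with iOB 6.10-fold below fibroblasts (-2.61 ± 0.23) and calvarial-OB 2.25-fold below them (-1.17 ± 0.22, adjusted p = 6.6e-04). Against calvarial-OB, iOB gave -1.44 ± 0.22 (adjusted p = 2.7e-04). The platelet-type subunit Pfkp measured 17.2, 22.1 and 24.2 CPM in iOB, 66.8, 46.7 and 49.0 CPM in calvarial-OB and 30.6, 31.4 and 33.7 CPM in fibroblasts. Calvarial-OB were highest for Pfkp and iOB lowest, with -0.59 ± 0.16 in iOB against fibroblasts, 0.76 ± 0.16 in calvarial-OB against fibroblasts (adjusted p = 0.0014) and -1.35 ± 0.16 in iOB against calvarial-OB (adjusted p = 4.2e-05). The muscle-type subunit Pfkm averaged 41.6 ± 0.695 CPM in iOB, 34.2 ± 8.62 CPM in calvarial-OB and 52.6 ± 4.29 CPM in fibroblasts, and it fell in calvarial-OB (-0.63 ± 0.15, adjusted p = 0.0043) while iOB did not pass (-0.34).

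Pfkfb3, which makes the strongest activator of phosphofructokinase, measured 25.9, 25.2 and 24.1 CPM in iOB, 93.2, 49.8 and 50.6 CPM in calvarial-OB and 109, 95.2 and 90.7 CPM in fibroblasts. All iOB libraries lay below all others, whereas calvarial replicate 1 lay within the fibroblast range. The log2 fold change was -1.97 ± 0.22 in iOB and -0.61 ± 0.20 in calvarial-OB against fibroblasts (adjusted p = 0.022), and -1.36 ± 0.22 in iOB against calvarial-OB (adjusted p = 3.1e-04). The calvarial call was lost without any one of calvarial replicates 2 and 3 and fibroblast replicates 1 and 2 (-0.63 to -0.44, adjusted p 0.058 to 0.12).

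The enzymes from aldolase to enolase were mostly lower in iOB. Aldoa, the muscle-type aldolase that most cells use, measured 331, 339.9 and 336 CPM in iOB, 1258, 846 and 849 CPM in calvarial-OB and 977, 956 and 1007 CPM in fibroblasts. The iOB libraries stood apart below the other groups, which overlapped. Against calvarial-OB, Aldoa in iOB was 2.93-fold lower (-1.55 ± 0.14, adjusted p = 6.2e-06), about the size of its difference from fibroblasts (-1.55 ± 0.14), while calvarial-OB against fibroblasts gave 0.01 ± 0.14. Aldoc, the brain-type aldolase, measured 2.72, 2.52 and 3.76 CPM in iOB, 21.9, 9.44 and 10.7 CPM in calvarial-OB and 1.41, 1.13 and 1.74 CPM in fibroblasts. It rose 9.44-fold in calvarial-OB (3.24 ± 0.36, adjusted p = 1.3e-05), the opposite of most genes here, and iOB did not pass (1.01) although no iOB library overlapped fibroblasts. With DESeq2 (1.06) or these 2 groups only (1.05) the iOB difference passed. Between the cultures, Aldoc in iOB was -2.23 ± 0.34 against calvarial-OB (adjusted p = 2.4e-04).

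Tpi1, triose phosphate isomerase, measured 107, 118 and 115 CPM in iOB, 434, 289 and 286 CPM in calvarial-OB and 459, 417 and 471 CPM in fibroblasts. In iOB it was 3.96-fold lower than in fibroblasts (-1.99 ± 0.16) and 2.97-fold lower than in calvarial-OB (-1.57 ± 0.15, adjusted p = 9.0e-06). In calvarial-OB the smaller difference (-0.42, adjusted p = 0.031) was lost in 5 of the 6 fits that left out 1 of these libraries. Gapdh, often used as a loading control, measured 367, 389 and 370.1 CPM in iOB, 998, 955 and 757 CPM in calvarial-OB and 1191, 1182 and 1244 CPM in fibroblasts. The 3 groups did not overlap, in the order iOB, calvarial-OB and fibroblast, with log2 fold changes against fibroblasts of -1.68 ± 0.11 in iOB and -0.42 ± 0.11 in calvarial-OB (adjusted p = 0.0072). Between iOB and calvarial-OB it was -1.27 ± 0.11 (adjusted p = 4.7e-06).

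Pgk1, phosphoglycerate kinase and the first ATP-yielding step, measured 176, 172 and 186 CPM in iOB, 569, 507 and 543 CPM in calvarial-OB and 882, 811 and 899 CPM in fibroblasts. It showed the same order with no overlap, 4.86-fold lower in iOB (-2.28 ± 0.10) and 1.60-fold lower in calvarial-OB (-0.68 ± 0.09, adjusted p = 7.0e-05) than in fibroblasts. Between iOB and calvarial-OB it was -1.60 ± 0.10 (adjusted p = 2.4e-07). Pgam1, the mutase that follows it, averaged 296 ± 37.4 CPM in iOB, 408 ± 56.2 CPM in calvarial-OB and 551 ± 42.2 CPM in fibroblasts, with -0.90 in iOB against fibroblasts and smaller differences that passed in iOB against calvarial-OB (-0.46 ± 0.13, adjusted p = 0.010) and in calvarial-OB against fibroblasts (-0.44 ± 0.13, adjusted p = 0.012). The call between the cultures was lost without iOB replicate 3, and that against fibroblasts without calvarial replicate 2 or fibroblast replicate 3.

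Eno2, the neuronal enolase, measured 11.8, 13.4 and 14.2 CPM in iOB, 67.9, 23.3 and 22.4 CPM in calvarial-OB and 37.6, 29.9 and 36.3 CPM in fibroblasts. The iOB libraries were all below fibroblasts (-1.40 ± 0.37), and calvarial replicate 1 was far above the other calvarial libraries. Calvarial-OB against fibroblasts gave 0.11 ± 0.34, but without that library -0.62 (adjusted p = 0.0017). In iOB against calvarial-OB it was -1.51 ± 0.37 (adjusted p = 0.0052), and -0.75 without that library. Eno1, the ubiquitous enolase, had 2 to 26 counts per library and was not tested. Eno1b, a near-identical retrocopy of it outside the 37 genes, averaged 155 ± 7.50 CPM in iOB, 413 ± 40.7 CPM in calvarial-OB and 739.7 ± 37.1 CPM in fibroblasts. How reads shared by the pair were assigned is not given in the sources used here, so the count of either is uncertain. Several other glycolytic genes, Gapdh, Ldha, Pgk1 and Aldoa among them, also have processed copies in the mouse genome and carry the same caution.

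Pyruvate and lactate handling held the largest difference of the 36 tested genes between iOB and fibroblasts. Slc16a3, which encodes the lactate exporter MCT4 of glycolytic cells, measured 1.81, 2.98 and 2.29 CPM in iOB, 82.9, 38.4 and 30.3 CPM in calvarial-OB and 118, 101 and 115 CPM in fibroblasts. The iOB libraries held 12 to 26 counts of it each, and the 3 groups did not overlap. It was 46.0-fold lower in iOB than in fibroblasts (-5.52 ± 0.40), 2.22-fold lower in calvarial-OB than in fibroblasts (-1.15 ± 0.29, adjusted p = 0.0046) and 20.7-fold lower in iOB than in calvarial-OB (-4.37 ± 0.40, adjusted p = 5.7e-06). Leaving out calvarial replicate 1, its highest, gave -3.76 for the last comparison.

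The other lactate carrier, Slc16a1 (MCT1), averaged 34.8 ± 5.57 CPM in iOB, 31.6 ± 9.07 CPM in calvarial-OB and 62.1 ± 15.0 CPM in fibroblasts. It fell in calvarial-OB (-0.97 ± 0.22, adjusted p = 0.0026), was -0.83 in iOB against fibroblasts, and did not pass between iOB and calvarial-OB (0.14 ± 0.22).

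Ldha, the lactate dehydrogenase chain that favours making lactate, measured 191, 200.2 and 188 CPM in iOB, 681, 715 and 656 CPM in calvarial-OB and 864, 796 and 905 CPM in fibroblasts. The groups did not overlap, with iOB 4.43-fold below fibroblasts (-2.15 ± 0.10) and 3.54-fold below calvarial-OB (-1.82 ± 0.10, adjusted p = 1.1e-07). Calvarial-OB differed from fibroblasts by -0.32 ± 0.09 (adjusted p = 0.011), and without fibroblast replicate 3 that call was lost (-0.27). The chain that favours using lactate, Ldhb, measured 58.5, 72.2 and 70.0 CPM in iOB, 42.3, 39.6 and 44.1 CPM in calvarial-OB and 48.4, 50.1 and 45.0 CPM in fibroblasts. It was the reverse of Ldha, higher in every iOB library than in any other, by 0.67 ± 0.11 against calvarial-OB (adjusted p = 3.8e-04) and 0.49 ± 0.11 against fibroblasts. Pdk1, the kinase that shuts off pyruvate dehydrogenase, measured 16.0, 20.9 and 16.5 CPM in iOB, 69.1, 37.5 and 44.9 CPM in calvarial-OB and 115, 102 and 101 CPM in fibroblasts. Its groups again did not overlap, at 5.90-fold lower in iOB (-2.56 ± 0.21) and 2.10-fold lower in calvarial-OB (-1.07 ± 0.19, adjusted p = 4.8e-04) than in fibroblasts. It was -1.49 ± 0.21 in iOB against calvarial-OB (adjusted p = 1.1e-04).

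**Figure D2:**
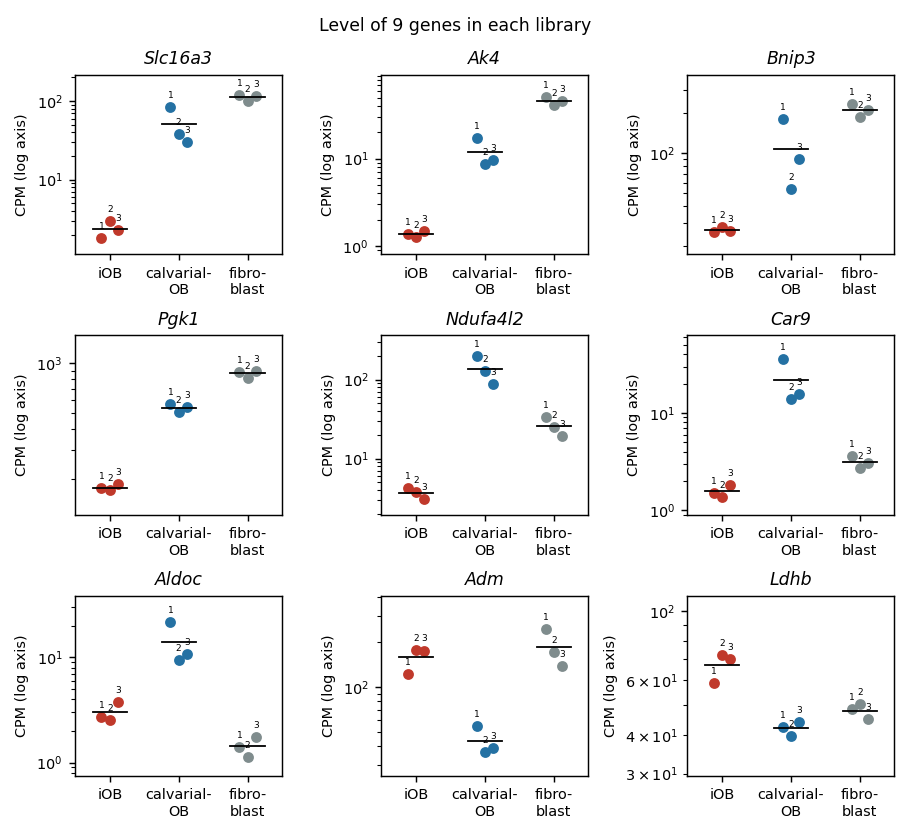
CPM of 9 genes in each library on log axes, 1 panel a gene, with 3 points each for iOB, calvarial-OB and fibroblasts and a bar at the group mean. Slc16a3 is at 1.81 to 2.98 CPM in iOB and above 30 CPM in every other library, and Ndufa4l2 is lowest in iOB and highest in calvarial-OB.

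Among the genes of mitochondria, Ak4 and Ndufa4l2 showed the largest differences. Ak4, an adenylate kinase of the matrix, measured 1.36, 1.26 and 1.47 CPM in iOB, 17.4, 8.70 and 9.77 CPM in calvarial-OB and 51.3, 41.4 and 45.4 CPM in fibroblasts. No groups overlapped, the iOB libraries held 9 to 11 counts each, and Ak4 was 33.7-fold lower in iOB (-5.07 ± 0.30) and 3.88-fold lower in calvarial-OB (-1.96 ± 0.22, adjusted p = 1.2e-05) than in fibroblasts. Between iOB and calvarial-OB it was -3.12 ± 0.32 (adjusted p = 1.2e-05). Ndufa4l2, which lowers complex I activity in hypoxic cells, measured 4.23, 3.78 and 3.11 CPM in iOB, 197, 127 and 88.0 CPM in calvarial-OB and 33.4, 25.1 and 19.3 CPM in fibroblasts. It was lower in iOB than in fibroblasts (-2.79 ± 0.34) but rose 5.28-fold in calvarial-OB (2.40 ± 0.27, adjusted p = 1.4e-05), which left iOB 36.6-fold below calvarial-OB (-5.19 ± 0.34, adjusted p = 5.0e-07).

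Bnip3, a receptor that marks mitochondria for mitophagy, measured 25.4, 27.8 and 26.2 CPM in iOB, 179, 53.8 and 90.6 CPM in calvarial-OB and 232, 187 and 211 CPM in fibroblasts. All iOB libraries were below the rest, by 7.93-fold against fibroblasts (-2.99 ± 0.34) and with a log2 fold change of -2.02 ± 0.33 against calvarial-OB (adjusted p = 3.8e-04). Without calvarial replicate 1 the second value was -1.41. The calvarial difference from fibroblasts (-0.97 ± 0.31, adjusted p = 0.018) was lost in 4 of the 6 fits that left out a library and with DESeq2 (adjusted p = 0.051). Its relative Bnip3l averaged 103 ± 6.19 CPM in iOB, 108 ± 22.1 CPM in calvarial-OB and 165 ± 4.29 CPM in fibroblasts, lower in both cultures (-0.68 in iOB, -0.61 ± 0.14 in calvarial-OB, adjusted p = 0.0024). Higd1a, which associates with respiratory complexes, averaged 39.9 ± 4.55 CPM in iOB, 70.2 ± 6.24 CPM in calvarial-OB and 57.3 ± 5.17 CPM in fibroblasts, and was lower in iOB than in calvarial-OB (-0.82 ± 0.12, adjusted p = 1.8e-04). Against fibroblasts it was -0.53 in iOB, and its calvarial difference did not pass (0.29, adjusted p = 0.053). It passed with upper-quartile scaling (0.38, adjusted p = 0.016) and without calvarial replicate 2 (0.38, adjusted p = 0.027).

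Of the oxygen-dependent enzymes, Egln3 varied most. Egln3, a HIF prolyl hydroxylase that is itself a HIF target, measured 1.66, 2.98 and 2.62 CPM in iOB, 38.3, 6.25 and 9.57 CPM in calvarial-OB and 15.6, 9.77 and 10.6 CPM in fibroblasts. Every iOB library was below every other one, and calvarial replicate 1 stood far above the rest. In iOB against calvarial-OB the log2 fold change was -2.85 ± 0.64 (adjusted p = 0.0031), and -1.67 without that library. Calvarial-OB against fibroblasts did not pass (0.56 ± 0.51), and the value was -0.58 without it. The main HIF prolyl hydroxylase Egln1 averaged 46.5 ± 4.94 CPM in iOB, 81.0 ± 20.2 CPM in calvarial-OB and 90.9 ± 6.26 CPM in fibroblasts, with -0.97 in iOB against fibroblasts, and passed in iOB against calvarial-OB (-0.80 ± 0.16, adjusted p = 0.0015). Kdm3a, a histone demethylase induced by HIF, measured 33.6, 35.4 and 37.1 CPM in iOB, 45.4, 30.6 and 35.8 CPM in calvarial-OB and 87.7, 78.2 and 72.9 CPM in fibroblasts. It was lower by like amounts in iOB (-1.17 ± 0.14) and in calvarial-OB (-1.10 ± 0.14, adjusted p = 3.6e-05), and iOB against calvarial-OB gave -0.07 ± 0.14.

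Car9 and Ankrd37 were highest in calvarial-OB. Car9, a membrane carbonic anhydrase that handles acid and is a classic hypoxia marker, measured 1.51, 1.38 and 1.80 CPM in iOB, 35.5, 13.9 and 15.8 CPM in calvarial-OB and 3.58, 2.69 and 3.07 CPM in fibroblasts. Calvarial-OB were 6.83-fold above fibroblasts (2.77 ± 0.34, adjusted p = 3.0e-05), and iOB were 13.8-fold below calvarial-OB (-3.79 ± 0.40, adjusted p = 1.5e-05). Every iOB library was also below every fibroblast library, but that difference did not pass over all 9 libraries (-1.02 ± 0.46) and passed with these 2 groups only (-0.97). Ankrd37, a small ankyrin repeat protein induced by hypoxia, measured 2.12, 1.72 and 0.654 CPM in iOB, 16.2, 5.64 and 9.37 CPM in calvarial-OB and 1.98, 1.98 and 2.24 CPM in fibroblasts. It rose in calvarial-OB (2.31 ± 0.39, adjusted p = 3.4e-04), while iOB overlapped fibroblasts (-0.44 ± 0.49) and were below calvarial-OB (-2.75 ± 0.43, adjusted p = 2.7e-04). Mxi1, which opposes Myc, averaged 19.4 ± 1.62 CPM in iOB, 35.0 ± 12.8 CPM in calvarial-OB and 31.4 ± 2.28 CPM in fibroblasts. It was -0.69 in iOB against fibroblasts and lower in iOB than in calvarial-OB (-0.84 ± 0.21, adjusted p = 0.0064).

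Neither secreted factor passed in iOB against fibroblasts, and Adm was lower in calvarial-OB. Vegfa, the main angiogenic growth factor, measured 95.0, 78.0 and 85.6 CPM in iOB, 121, 62.6 and 57.1 CPM in calvarial-OB and 95.9, 91.9 and 85.5 CPM in fibroblasts. The groups overlapped and no comparison passed, with log2 fold changes of -0.08 ± 0.23 in iOB and -0.19 ± 0.23 in calvarial-OB against fibroblasts. Adm, which encodes the vasodilator peptide adrenomedullin, measured 122, 177 and 175 CPM in iOB, 54.6, 36.3 and 39.0 CPM in calvarial-OB and 245, 171 and 137 CPM in fibroblasts. Calvarial-OB were 4.27-fold below fibroblasts (-2.09 ± 0.23, adjusted p = 1.2e-05), iOB overlapped fibroblasts (-0.22 ± 0.22), and iOB were 3.66-fold above calvarial-OB (1.87 ± 0.23, adjusted p = 4.7e-05). Adm and Ldhb were the 2 genes of the 36 that were higher in iOB than in calvarial-OB.

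P4ha1 and P4ha2, catalytic subunits of the collagen prolyl hydroxylase that stabilises the collagen triple helix, were lower in both cultures. P4ha3, another such subunit outside the listed genes, was higher, at 136, 142 and 142 CPM in iOB, 132, 155 and 149 CPM in calvarial-OB and 63.5, 74.2 and 74.8 CPM in fibroblasts (0.98 ± 0.11 in iOB and 1.04 ± 0.11 in calvarial-OB against fibroblasts, adjusted p = 1.6e-05 and 6.0e-06 by edgeR's test). P4ha1 measured 167, 158 and 162 CPM in iOB, 279.7, 351 and 303 CPM in calvarial-OB and 445, 434 and 437 CPM in fibroblasts. P4ha2 measured 96.0, 86.4 and 87.0 CPM in iOB, 131, 167 and 122 CPM in calvarial-OB and 352, 258 and 254 CPM in fibroblasts. For P4ha1 and P4ha2 alike the 3 groups did not overlap, in the order iOB, calvarial-OB and fibroblast. Against fibroblasts, P4ha1 was -1.43 ± 0.10 in iOB and -0.50 ± 0.10 in calvarial-OB (adjusted p = 0.0013), and P4ha2 was -1.68 ± 0.15 in iOB and -1.04 ± 0.15 in calvarial-OB (adjusted p = 1.1e-04). Between iOB and calvarial-OB, P4ha1 was -0.94 ± 0.10 (adjusted p = 2.1e-05) and P4ha2 -0.64 ± 0.15 (adjusted p = 0.0045).

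**Figure D3:**
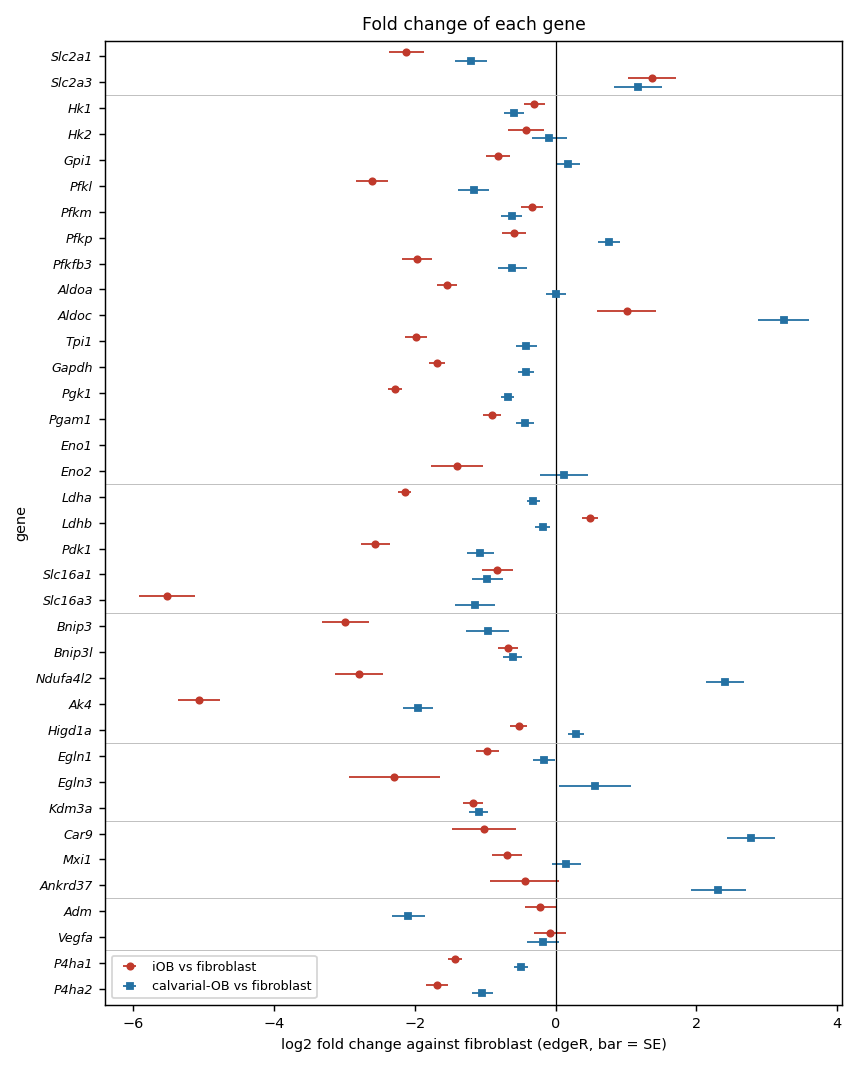
Log2 fold change of each gene in iOB (circles) and calvarial-OB (squares) against fibroblasts, with standard errors as bars and genes grouped by role. Slc16a3 and Ak4 in iOB lie beyond -5, while Aldoc, Car9, Ndufa4l2 and Ankrd37 in calvarial-OB lie above 2. Both sets of values share the fibroblast libraries, and Eno1 has no point.

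Calvarial replicate 1 was the highest of its 3 libraries for 31 of the 36 genes, a place it held for 36.6% of all tested genes. It also had the lower correlations with its group (Pearson's r across genes 0.972 and 0.969, against 0.987 for the other pair). The median coefficient of variation of the 36 genes was 9.66% in iOB, 29.8% in calvarial-OB and 8.09% in fibroblasts. Without that library, calvarial-OB against fibroblasts had 26 genes lower and 6 higher of 37, where 28.4 and 29.2% of all genes tested in that fit were, since Eno1 then passed the filter and was called lower. Hk2 (-0.55), Egln1 (-0.40), Vegfa (-0.62), Aldoa (-0.22) and Eno2 (-0.62) were also called lower, although over all 9 libraries they did not pass. Set against the other 2 calvarial libraries, iOB had 5 genes higher, where 29.1% of all genes tested in that fit were. Hk1 (0.54), Pfkm (0.55) and Vegfa (0.57) were the ones added.

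Promoter windows from RefSeq, 250 bases before to 50 after an annotated start on GRCm38.p6, matched 34 of the 37 genes. For a gene with several listed windows only the first was searched, so other starts are not covered. On either strand, ACGTG occurred in 19 of the 34 windows, 55.9%, against 23.8% of the 12934 windows of genes in the count table. GCGTG occurred in 20, 58.8%, against 46.9%. The genes were listed for glycolysis and the hypoxia response, where such elements are known, so nothing is read from these shares. The E-box CACGTG, which Myc and other factors bind, holds ACGTG on both strands and counted as 2 matches. The median GC content was 63.3% in the windows of these genes and 59.7% in all windows, and a match is a run of letters, not a tested site. The windows of the 3 genes lowest in iOB relative to fibroblasts that have a window, and of Car9, the carbonic anhydrase raised in calvarial-OB, are shown 5′ to 3′ on the gene's strand, with both motifs and their reverse complements in capitals. Slc16a3 lies at chr11:120948817-120949116 (+), Ak4 at chr4:101419039-101419338 (+), Bnip3 at chr7:138909457-138909756 (-) and Car9 at chr4:43506776-43507075 (+).
Slc16a3: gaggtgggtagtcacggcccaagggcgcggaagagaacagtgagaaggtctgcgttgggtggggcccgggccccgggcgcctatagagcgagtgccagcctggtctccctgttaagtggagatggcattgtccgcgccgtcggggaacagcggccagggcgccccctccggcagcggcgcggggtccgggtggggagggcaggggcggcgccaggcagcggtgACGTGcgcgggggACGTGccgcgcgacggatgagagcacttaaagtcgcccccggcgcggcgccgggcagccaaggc
Ak4: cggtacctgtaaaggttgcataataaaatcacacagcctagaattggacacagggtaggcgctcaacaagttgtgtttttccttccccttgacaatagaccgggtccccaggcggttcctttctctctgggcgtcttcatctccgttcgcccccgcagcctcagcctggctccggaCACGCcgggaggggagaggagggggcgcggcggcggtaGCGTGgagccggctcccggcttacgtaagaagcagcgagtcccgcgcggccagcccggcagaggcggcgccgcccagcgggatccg
Bnip3: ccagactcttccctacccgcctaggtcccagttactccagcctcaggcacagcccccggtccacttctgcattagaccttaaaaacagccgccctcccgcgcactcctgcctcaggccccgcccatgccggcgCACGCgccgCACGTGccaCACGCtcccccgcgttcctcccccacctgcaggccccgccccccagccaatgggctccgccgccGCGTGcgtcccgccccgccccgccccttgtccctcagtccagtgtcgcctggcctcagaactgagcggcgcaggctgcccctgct
Car9: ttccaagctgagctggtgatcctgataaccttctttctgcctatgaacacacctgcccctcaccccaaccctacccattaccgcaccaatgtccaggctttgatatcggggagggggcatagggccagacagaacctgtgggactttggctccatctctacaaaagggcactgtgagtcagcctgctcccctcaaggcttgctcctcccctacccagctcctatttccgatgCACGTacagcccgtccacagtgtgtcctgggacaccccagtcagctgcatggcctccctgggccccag

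The Slc16a3 window held 2 ACGTG matches close together before the start, Ak4 held 2 GCGTG matches and no ACGTG, Bnip3 held 5 matches and Car9 held 1. Ldha, lower in iOB, held 7 matches, whereas the windows searched for Tpi1 and Aldoa, also lower in iOB, held none, and neither did that of Vegfa. Aldoa had 3 listed windows, Vegfa 2 and Ak4 4, and those after the first were not searched.

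The wider HIF system was measured over 17 other genes. Hif1a, the oxygen-regulated HIF subunit, averaged 198 ± 18.0 CPM in iOB, 111 ± 19.8 CPM in calvarial-OB and 649 ± 34.7 CPM in fibroblasts. It fell in iOB (-1.71 ± 0.13, adjusted p = 1.4e-06) and further in calvarial-OB (-2.55 ± 0.14, adjusted p = 5.2e-08), so it was higher in iOB than in calvarial-OB (0.84 ± 0.13, adjusted p = 2.9e-04), the opposite order from most of the 37 genes. Epas1, which encodes HIF-2alpha, rose in both, by 1.79 ± 0.24 in iOB and 1.35 ± 0.24 in calvarial-OB (adjusted p = 9.3e-05 and 4.7e-04 by the same test). Of the 17, iOB had 1 higher and 6 lower than fibroblasts, against 22.7 and 20.6% of all tested genes. Calvarial-OB had 3 higher and 8 lower than fibroblasts, against 28.4 and 27.4%. Between the cultures, iOB had 3 higher and 5 lower than calvarial-OB, against 24.7 and 24.1%. Cited2, a HIF-induced competitor for the coactivator, was lower in both (-1.58 in iOB, -0.97 in calvarial-OB), and the coactivator gene Ep300 fell in calvarial-OB (-1.12) and did not pass in iOB (-0.21).

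Other hypoxia targets, 37 measured genes outside the listed ones, were split. In iOB 11 were higher and 16 lower than in fibroblasts, against 22.7 and 20.6% of all tested genes. In calvarial-OB 15 were higher and 15 lower than in fibroblasts, against 28.4 and 27.4%. Set against calvarial-OB, iOB had 8 higher and 15 lower, against 24.7 and 24.1% of all tested genes. The medians of these 37 genes against fibroblasts were -0.08 in iOB and 0.05 in calvarial-OB, beside -0.04 and 0.02 over all tested genes. The lower ones in iOB against fibroblasts are named by smallest adjusted p, so they are not typical of the list. They were Fam162a (-2.28), Mif (-2.31), Gys1, muscle-type glycogen synthase (-2.14), and the collagen lysyl hydroxylase Plod1 (-1.57). The higher ones included the placental growth factor gene Pgf (2.71) and the transcriptional repressor gene Bhlhe40 (1.89). Mif differed between iOB and calvarial-OB (-2.12 ± 0.14, adjusted p = 6.0e-07) but not detectably between calvarial-OB and fibroblasts (-0.20 ± 0.13).

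Glycolytic genes outside the listed ones numbered 15 tested. In iOB 5 were higher and 3 lower than in fibroblasts, where 22.7 and 20.6% of all tested genes were. In calvarial-OB 5 were higher and 6 lower than in fibroblasts, where 28.4 and 27.4% were. Pkm, the pyruvate kinase of most tissues, was lower in iOB (-1.17 ± 0.12, adjusted p = 1.1e-05) and in calvarial-OB (-0.90 ± 0.12, adjusted p = 5.4e-05). Pfkfb4, a relative of Pfkfb3, rose in both, by 2.09 ± 0.15 in iOB and 1.61 ± 0.15 in calvarial-OB, where Pfkfb3 was lower in both. Hk3, a hexokinase of myeloid cells, averaged 13.4 ± 4.85 CPM in iOB, 53.0 ± 21.6 CPM in calvarial-OB and 0.213 ± 0.0623 CPM in fibroblasts, to be read beside the macrophage marker sums above. Proliferation markers also moved with the group: their sum was 219 to 268 CPM in iOB, 475 to 723 CPM in calvarial-OB and 594 to 883 CPM in fibroblasts, and 13 of 14 were lower in iOB than in fibroblasts, against 5 of 14 lower and 2 of 14 higher in calvarial-OB. All 14 were lower in iOB than in calvarial-OB. Their part in the levels of the glycolytic genes was not tested.

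The authors' deposited tables gave fold changes of iOB and of iOB GFP+ against fibroblasts, moderated by DESeq2. In the authors' deposited table of iOB, which compares the groups whose values were in view when the genes were listed, 27 of the 37 genes were lower at their adjusted p below 0.05, against 15.0% of genes with an adjusted p, and 3 were higher, against 19.9%. In the authors' deposited table of iOB GFP+, 28 were lower, against 21.7%, and 2 were higher, against 23.7%. The medians of the 37 genes were -1.13 in the iOB table and -1.28 in the iOB GFP+ table. Both tables are set against fibroblasts, and which libraries stand behind them is not stated in the sources used here. In the iOB table the base mean of Cfd, its average normalised signal, was 225. Cfd had 2 to 15 counts per library in iOB, 0 in fibroblasts and 308 to 1770 in calvarial-OB, so libraries of another group also entered that fit. The iOB table is not treated as independent of the counts above.

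Slc16a3, Ak4 and Bnip3 were low in the sorted cells too. In the authors' deposited tables Slc16a3 was -4.94 ± 0.36 in iOB GFP+ and -5.06 ± 0.42 in iOB, Ak4 was -4.54 ± 0.27 in iOB GFP+ and -4.81 ± 0.33 in iOB, and Bnip3 was -3.06 ± 0.18 in iOB GFP+ and -2.76 ± 0.40 in iOB. For Slc2a1 the authors' deposited tables gave -2.97 ± 0.36 in iOB GFP+ and -2.05 ± 0.24 in iOB. Egln3 was -3.63 ± 0.41 in iOB GFP+ and -1.85 ± 0.60 in iOB, and Eno2 was -2.60 ± 0.48 in iOB GFP+ and -1.26 ± 0.43 in iOB, in the authors' deposited tables. Adm was -2.21 ± 0.44 in iOB GFP+ (the authors' deposited table, adjusted p = 3.5e-06) and -0.19 ± 0.22 in iOB, where it did not pass. The 2 genes higher in iOB GFP+ in the authors' deposited table were Aldoc (1.59 ± 0.31, against 0.97 ± 0.40 in iOB, where it also passed) and Vegfa (0.66 ± 0.12), and Vegfa was -0.06 ± 0.23 in iOB. Ldhb, higher in iOB at 0.51 ± 0.13 in the authors' deposited table, was -0.47 ± 0.24 in iOB GFP+, where it did not pass (adjusted p = 0.089). The authors' deposited tables gave P4ha1 as -0.77 ± 0.23 in iOB GFP+ and -1.40 ± 0.10 in iOB, and P4ha2 as -0.64 ± 0.28 in iOB GFP+ and -1.64 ± 0.16 in iOB. P4ha3, outside the listed genes, was 1.00 ± 0.11 in iOB in the authors' deposited table. In iOB GFP+ P4ha3 was -0.48 ± 0.32 and did not pass (the authors' deposited table, adjusted p = 0.23). The differences between the tables were not tested, since no sorted libraries were analysed here.

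**Figure D4:**
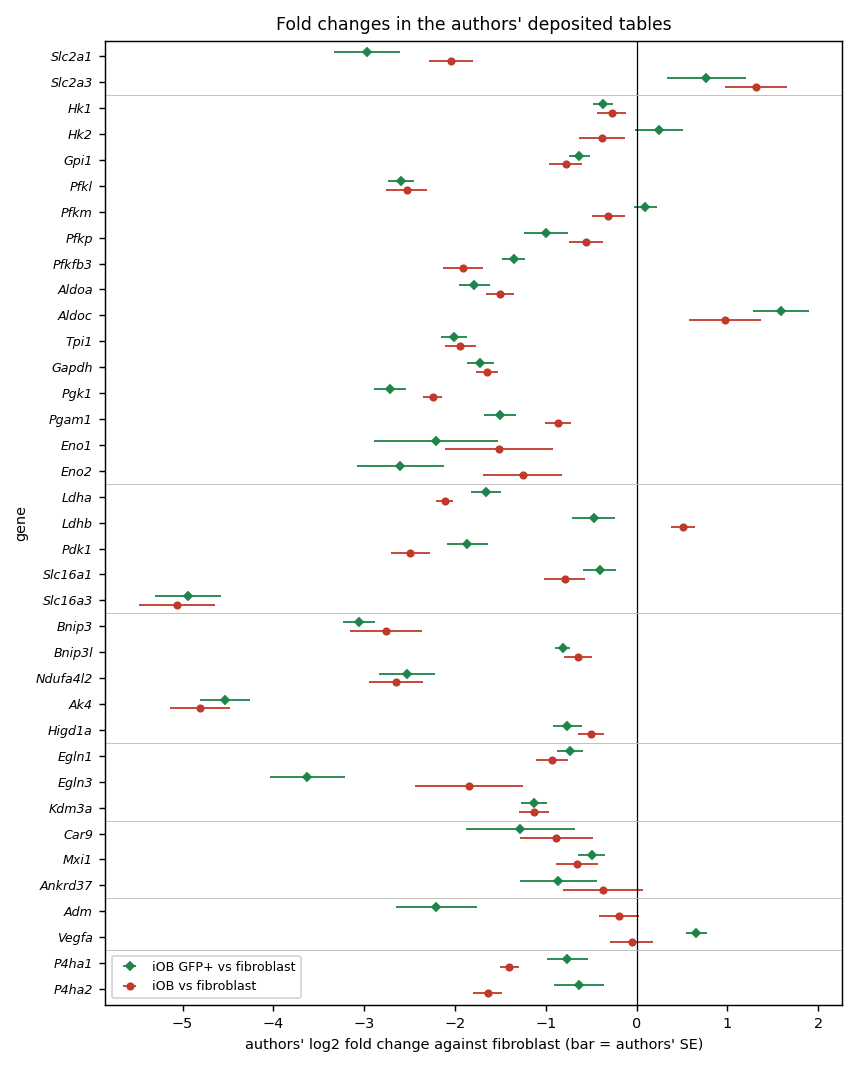
The authors' deposited log2 fold changes against fibroblasts of the 37 genes in iOB GFP+ and in iOB, with the authors' standard errors as bars. Slc16a3, Ak4 and Bnip3 are low in both, and Adm, Egln3 and Vegfa differ in value between the tables.

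Hif1a was -1.78 and Pfkfb4 2.96 in iOB GFP+ in the authors' deposited table. In it all 11 osteoblast markers were higher, with the caution above for Runx2, Sp7 and Dlx5. Of the proliferation markers, 13 of 14 were lower. All 17 macrophage markers had positive fold changes there, with a median of 3.65, but 16 of the 17 carried neither a raw nor an adjusted p-value. Their errors were wide, as for Mpeg1 (3.86 ± 0.98, against 5.55 ± 0.41 in the authors' iOB table). How evenly the sorted libraries carried these markers is not known.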

How the data were processed

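Poly-A RNA was sequenced. Per the submitters' processing notes, STAR 2.4.2a, Bowtie2, DESeq2 and R 3.2.2 were used with mm9, with no roles named. How reads were counted, and whether by strand, is not given in the sources used here. The authors deposited whole-number counts per gene for 9 libraries. They also deposited 2 DESeq2 tables, whose base mean is a normalised signal, whose fold changes are log2 values with standard errors, whose test statistic is a score, and whose p-values are raw and adjusted, per the file headers. Methylation data and bone chip cells are not analysed here.

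The members and gene lists were chosen with earlier results of these data known. Counts were tested with edgeR 4.0.16 (TMM, filterByExpr, quasi-likelihood fit over all 9 libraries, group only) in R 4.3.3, and p-values were adjusted over 13438 genes. The common biological coefficient of variation was 14.8%. Genes were given in full where a log2 fold change reached 1 in any comparison and the mean of the 9 libraries reached 1 CPM. Kdm3a (1.17) was just inside, and Gpi1 (0.99), Slc16a1 (0.97) and Egln1 (0.97) just outside. Ldhb (0.67) and Vegfa (0.19) were given in full although outside this rule. Scripts were tested on simulated data. Alternatives were upper-quartile scaling, DESeq2 1.42.0, no filter, Rn45s left out, 2 groups only, a replicate block and leaving out each library.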

Additional observations from a re-analysis of the deposited data

How the results depend on the processing

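In iOB against fibroblasts the median log2 fold change of the tested genes was -1.07 with DESeq2, -1.15 with no filter (37 genes, Eno1 included), -1.05 with these 2 groups only, -1.07 with the replicate block and -1.21 to -1.01 without 1 library. In iOB against calvarial-OB it was -1.20 with upper-quartile scaling, -0.97 with no filter and -1.11 to -0.75 without 1 library. The count of genes higher in that comparison was 2 to 5 without 1 library. It was 5 when calvarial replicate 1 was left out, where 29.1% of all genes tested were higher, against 24.7% with all libraries. Without that library Aldoa (-0.22) and Eno2 (-0.62) changed sign in calvarial-OB against fibroblasts, with ranges of -0.22 to 0.13 and -0.62 to 0.42 without 1 library. Egln3 (-0.58), Gpi1 (-0.12) and Mxi1 (-0.17) also turned negative there without passing, and their ranges over the alternatives run were -0.58 to 0.98, -0.12 to 0.33 and -0.17 to 0.36. In iOB against calvarial-OB, Hk2 (0.16), Slc16a1 (-0.03), Bnip3l (0.09) and Kdm3a (0.13) changed sign without it, none of them called. The cause was not tested.

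Upper-quartile scaling moved the median of all genes to 0.10 in calvarial-OB against fibroblasts and to -0.11 in iOB against calvarial-OB. In iOB against fibroblasts, Mxi1 lost its call in 5 of the 6 fits without 1 library and Pfkp in 2. Same-numbered libraries of different groups deviated with correlations of -0.17 to 0.16, so the numbers are not taken to pair them. With only these 2 groups, Hk1, Hk2, Pfkm, Aldoc and Car9 gained a call in iOB against fibroblasts. The replicate block gave calls to Aldoc (1.07) and Car9 (-0.98) in iOB, and to Higd1a (0.29, adjusted p = 0.038) in calvarial-OB, against fibroblasts. With the block, 27 genes were lower and 3 higher in iOB than in fibroblasts, where 19.4 and 22.4% of all tested genes were. In calvarial-OB 20 were lower and 7 higher than in fibroblasts, where 27 and 27.8% of all tested genes were. Set against calvarial-OB, iOB had 26 lower and 2 higher, where 22.8 and 24.1% of all tested genes were. All counts of genes over the whole table stayed within 1.5 times. Eno1 had few counts, and the part of depth and of reads shared with Eno1b in that was not tested. Some other folds also rest on few counts per library. In iOB these were Ak4 (9 to 11), Car9 (10 to 12), Ankrd37 (4 to 15), Egln3 (11 to 26) and Slc16a3 (12 to 26), and in fibroblasts Aldoc (8 to 21).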

Other observations

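The pentose phosphate pathway makes NADPH and ribose from glucose 6-phosphate. Of its 7 genes, 6 were higher and 1 lower in calvarial-OB than in fibroblasts, where 28.4 and 27.4% of all tested genes were, by edgeR's quasi-likelihood test, including Taldo1 (1.21 ± 0.12, adjusted p = 6.6e-06) and G6pdx, its entry enzyme (0.93 ± 0.12, adjusted p = 4.2e-05). In iOB, 2 were higher and none lower than in fibroblasts, where 22.7 and 20.6% of all tested genes were, Rpia (1.78 ± 0.17) and Taldo1 (0.59 ± 0.12). Set against calvarial-OB, iOB had 5 lower and 1 higher, where 24.1 and 24.7% of all tested genes were.

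Of 17 genes that route pyruvate, 5 were higher and 3 lower in iOB than in fibroblasts, where 22.7 and 20.6% of all tested genes were. In calvarial-OB 6 were higher and 5 lower than in fibroblasts, where 28.4 and 27.4% were. Nothing is read from these counts. Pdk4, a relative of Pdk1 induced on fat use, averaged 134 ± 14.2 CPM in iOB, 28.7 ± 9.18 CPM in calvarial-OB and 40.4 ± 1.40 CPM in fibroblasts, and was higher in iOB than in calvarial-OB (2.21 ± 0.19, edgeR's quasi-likelihood test, adjusted p = 3.5e-06), the opposite of Pdk1. Mpc1 and Mpc2, both subunits of the mitochondrial pyruvate carrier, rose in calvarial-OB (1.07 ± 0.19 and 1.04 ± 0.15) and did not pass in iOB (0.21 and 0.24).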
